A study of Mus musculus with 6 samples.

Results

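Immediate-early genes are switched on within minutes of a growth factor or stress signal, from factors already present in the cell. Their transcripts are unstable, so the level soon falls once the signal ends. In many tumour lines the RAF-MEK-ERK kinase cascade keeps them on: ERK phosphorylates the ternary complex factors of the ELK family, which sit with SRF on promoters, and RSK and MSK kinases phosphorylate CREB. The 10 genes described here encode the zinc finger factors EGR1, EGR2 and EGR3, the orphan nuclear receptor NR4A1, the bHLH factor MYC, the immediate early response proteins IER2, IER3 and IER5, and the regulators PHLDA1 and CSRNP1. They were taken by gene symbol, and all 10 were found among the 56691 genes of the deposited table.

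RNA came from 4T1, a mammary carcinoma cell line of the mouse, as 3 vehicle and 3 KIRA6 libraries. After a night in complete medium the cells were given fresh medium with vehicle or with KIRA6 at 1 µmol/L and were collected at 4 h, so the vehicle cells too had received new medium. KIRA6 binds the kinase domain of the stress sensor IRE1α and lowers its RNase activity, and it has been reported to bind other kinases. Levels are FPKM, fragments per exon length scaled to the size of the library, so they can be compared between genes.

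The libraries held an estimated 16498950 to 21352300 fragments assigned to genes. Vehicle replicate 3 (−55.9) and KIRA6 replicate 1 (44.5) lay at opposite ends of the second principal component, which held 35.1% of the variance, so the changes of the members and the counts of each gene list are also given without both. Epithelial markers matched the label of the cells: the 8 genes, led by Krt8, summed to 1420 to 1550 FPKM in vehicle and 1650 to 1760 FPKM with KIRA6. The 5 endothelial markers stayed at 0.04 FPKM or less each. Leukocyte and fibroblast lists summed to 1.78 to 3.04 and 0.45 to 0.77 FPKM in vehicle and to 3.91 to 4.34 and 1.91 to 3.78 FPKM with KIRA6, with Cd68 and Pdgfra the highest genes, both called higher with KIRA6, while Ptprc, Csf1r, Col1a1 and Pdgfrb were below 0.1 FPKM in every library. Their part in the results was not tested.

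RefSeq promoter windows on GRCm38.p6, from 250 bases before to 50 after a listed start, were matched by symbol for 5 of the 10 genes, Egr2, Nr4a1, Ier3, Ier5 and Csrnp1. Egr1, Egr3, Ier2, Myc and Phlda1 had no entry. The 250 bases before the start are printed for a gene that fell and has the motif CREB factors bind (Nr4a1), one that fell without it (Ier3), one that was not called (Ier5), and one of the EGR genes at 1 of its 5 listed starts (Egr2). In capitals is TGACG, the core of the cyclic AMP response element, on either strand in Nr4a1, and the CArG box, the SRF site, in Egr2, where TGACG matches stay in lower case. Ier3 and Ier5 have no capitals because neither motif was found in their windows.
Nr4a1, chr15:101266596-101266845, plus strand: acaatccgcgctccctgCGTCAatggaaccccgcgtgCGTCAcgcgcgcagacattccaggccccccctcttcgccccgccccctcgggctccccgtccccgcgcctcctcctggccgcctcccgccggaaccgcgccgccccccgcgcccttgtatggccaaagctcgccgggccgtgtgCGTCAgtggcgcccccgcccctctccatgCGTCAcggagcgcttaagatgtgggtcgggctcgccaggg
Ier3, chr17:35821463-35821712, plus strand: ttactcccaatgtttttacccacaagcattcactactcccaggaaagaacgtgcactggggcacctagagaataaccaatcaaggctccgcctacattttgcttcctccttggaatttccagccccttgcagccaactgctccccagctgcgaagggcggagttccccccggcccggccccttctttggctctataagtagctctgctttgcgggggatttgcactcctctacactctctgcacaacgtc
Ier5, chr1:155099637-155099886, minus strand: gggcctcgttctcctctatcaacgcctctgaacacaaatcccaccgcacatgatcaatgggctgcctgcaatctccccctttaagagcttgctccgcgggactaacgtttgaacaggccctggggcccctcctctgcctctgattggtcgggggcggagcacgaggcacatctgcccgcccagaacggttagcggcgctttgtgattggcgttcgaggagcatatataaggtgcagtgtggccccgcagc
Egr2, chr10:67537619-67537868, plus strand: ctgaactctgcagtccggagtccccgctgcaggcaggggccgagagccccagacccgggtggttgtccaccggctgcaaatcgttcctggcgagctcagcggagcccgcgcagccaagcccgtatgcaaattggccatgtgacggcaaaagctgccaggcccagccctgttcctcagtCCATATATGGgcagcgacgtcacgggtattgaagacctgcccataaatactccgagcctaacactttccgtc

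The 4 TGACG matches of Nr4a1 lie 233, 213, 69 and 40 bases before the start. TGACG occurred on either strand in 20.8% of 32851 RefSeq windows of 300 bases, and 0.231% held 4 or more. A CArG box occurred in 1.63% of windows, and the printed Egr2 match lies 72 bases before the start, between TGACG matches at 111 and 55. A CArG box was found in 4 of the 5 Egr2 windows, of which the printed one and 2 more overlap and hold the same match. The other motifs were also searched on both strands. The full cyclic AMP element TGACGTCA, which contains the TGACG core, was present in 1.79% of windows. The ETS form CCGGAAG was present in 8.86%, the E-box CACGTG in 7.15%, the AP-1 form TGANTCA in 7.81%, and the EGR form GCGNGGGCG in 5.55%. The EGR form was found 60 bases before the start of Nr4a1. Every one of the 4 listed Csrnp1 windows held TGACG, and 1 of them also held 2 matches of the AP-1 form, 102 and 14 bases before the start. A match is a description of the letters and not a measured site.

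Ier2, Ier3, Phlda1, Nr4a1 and Csrnp1 were lower with KIRA6. Of the 8 members whose mean FPKM over all 6 libraries reached 0.5, which were tested with limma on log2(FPKM + 0.5), these 5 fell, 0 rose and 3 were not called (Egr1, Myc and Ier5). Of all 11778 tested genes 7.98% were called lower and 23.6% in either direction, at an adjusted p below 0.05. The 5 that fell did so by at least 2-fold, as did 3.33% of tested genes. All 8 had a negative log2 fold change, as had 37.8% of tested genes, and their median was −1.15 beside 0.16. Egr1 is among the 8 only through its vehicle values, so these figures describe the members that passed the filter and not all 10. Egr2 and Egr3 were too low to test. In 7 of the 10 genes the lowest vehicle library lay above the highest KIRA6 library, a pattern seen in 14.1% of tested genes, while 41.8% were apart in either direction. The 3 exceptions were Egr2, Egr3 and Ier5.

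**Figure D1:**
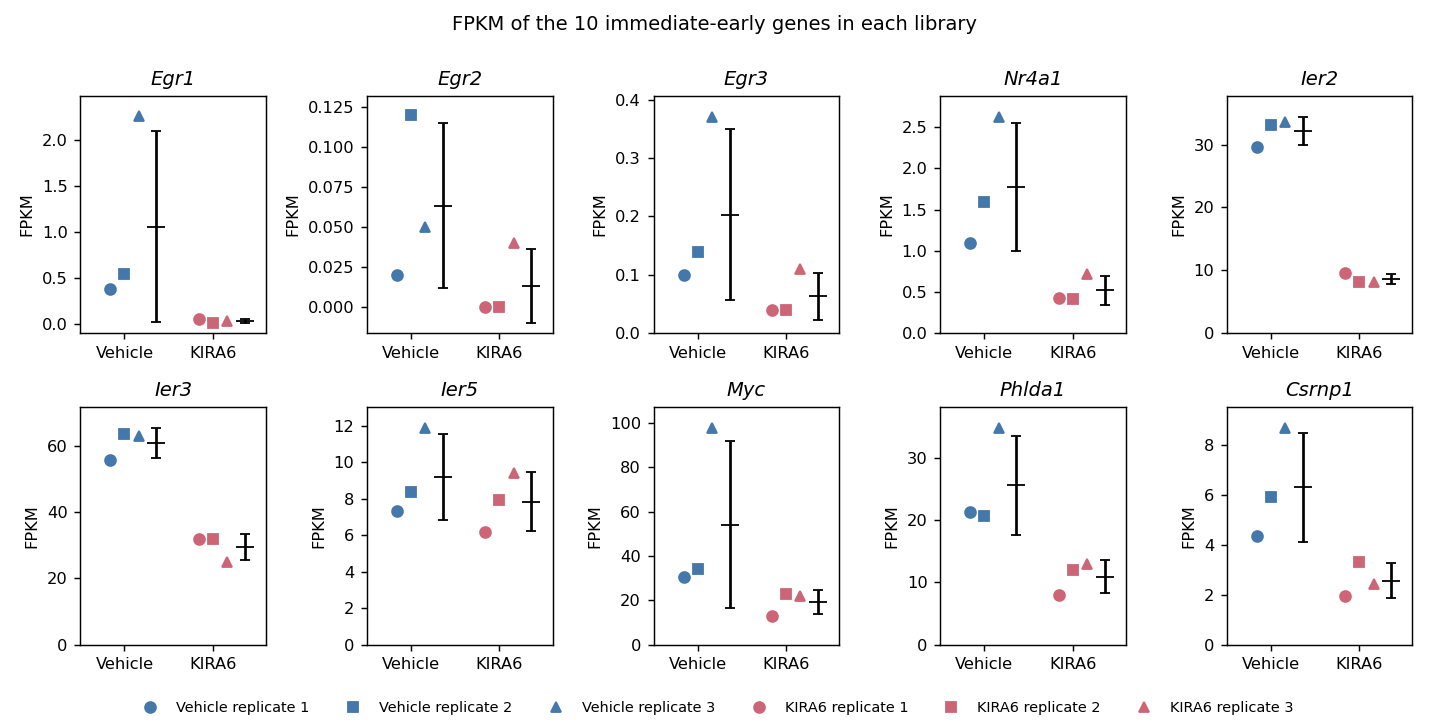
FPKM of each of the 10 genes (vertical axis, linear, own scale per panel) in the 3 vehicle and 3 KIRA6 libraries, with the group mean and SD in black. The libraries of Ier2 and Ier3 are tight and well separated, while Vehicle replicate 3 stands far above the other vehicle libraries for Egr1 (2.26 FPKM) and Myc (97.6 FPKM).

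The EGR factors bind GC-rich promoter sites through 3 zinc fingers, and Egr1 is the classic readout of ERK activity. Egr1 (ENSMUSG00000038418, chromosome 18, 34992876 to 34998037 on GRCm39, as for all positions below) had 0.38, 0.54 and 2.26 FPKM in vehicle replicates 1, 2 and 3 and 0.05, 0.01 and 0.03 FPKM in KIRA6 replicates 1, 2 and 3. The groups did not overlap, and Vehicle replicate 3 held most of the vehicle signal. In estimated fragments these values were 31, 40 and 188 against 5, 1 and 3. The summed KIRA6 level was 3.12% of the vehicle level (95% exact interval of 1.41% to 6.01%, for counting error only), and 7.40% (3.25% to 14.9%) without Vehicle replicate 3.

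Limma gave Egr1 a log2 fold change of −1.36 ± 0.42 (SE, 95% interval of −2.36 to −0.36), which missed the threshold (adjusted p = 0.05847). The pseudocount of 0.5 FPKM lies above every KIRA6 value and compresses this change. With a pseudocount of 0.1 the log2 fold change was −2.80 (limma adjusted p = 0.02232), and with limma-voom on estimated fragments −4.49 (adjusted p = 0.04072). Egr1 passed the filter through its vehicle values, with a mean of 0.545 FPKM, and was not tested without Vehicle replicate 3. With each other library left out in turn Egr1 was called once, without Vehicle replicate 1 (limma adjusted p = 0.04898), and the remaining 4 fits gave adjusted p from 0.09402 to 0.166. Median-ratio scaling gave 0.05438.

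Egr2 and Egr3, which act with EGR1 on shared sites in neurons and lymphocytes, were near the limit of detection. Egr2 (chromosome 10, 67371305 to 67378018) had 1, 7 and 3 estimated fragments in vehicle and 0, 0 and 3 with KIRA6, at or under the floor of 3 fragments in 5 of 6 libraries. Egr3 (chromosome 14, 70314652 to 70320063) had 0.10, 0.14 and 0.37 FPKM in vehicle and 0.04, 0.04 and 0.11 FPKM with KIRA6. The Egr3 groups overlapped by 1 library, and its summed KIRA6 level was 31.8% of vehicle (17.1% to 56.2%, counting error only). Without Vehicle replicate 3 it was 55.2% (26.7% to 113.0%), so a difference was then not detectable at this depth. A fit with no filter called neither gene (limma adjusted p = 0.3607 for Egr2 and 0.3275 for Egr3). The pseudocount of 0.5 FPKM lies above all values of both genes and compresses their log2 fold changes, to −0.13 and −0.3. Limma-voom on estimated fragments with no filter gave −1.98 and −1.51, and called neither (adjusted p = 0.2094 and 0.173).

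Nr4a1 encodes NUR77, a nuclear receptor without a known obligatory ligand that is induced by growth factors and by T cell receptor signals. Nr4a1 (ENSMUSG00000023034, chromosome 15, 101152150 to 101172676) had 1.1, 1.59 and 2.62 FPKM in vehicle and 0.43, 0.41 and 0.72 FPKM with KIRA6. Every vehicle library was above every KIRA6 library, though all 6 levels were low. The log2 fold change was −1.11 ± 0.27 (SE, limma adjusted p = 0.02893), and the call ended with no filter on low values (adjusted p = 0.0566). The pseudocount of 0.5 FPKM lies near the KIRA6 values and compresses this change. With a pseudocount of 0.1 the log2 fold change was −1.55 (limma adjusted p = 0.02562). Limma-voom on estimated fragments gave −1.72 with the filter and without it (adjusted p = 0.02596 and 0.01712). Estimated fragments give a KIRA6 level of 29.1% of vehicle (23.2% to 36.2%, counting error only), and 38.9% (30.2% to 50%) without Vehicle replicate 3. Without Vehicle replicate 3 and KIRA6 replicate 1 the log2 fold change was −0.80 (limma adjusted p = 0.01841). The call ended when Vehicle replicate 2 (adjusted p = 0.08436), KIRA6 replicate 1 (0.06693), KIRA6 replicate 2 (0.1134) or KIRA6 replicate 3 (0.05892) was left out of the limma fit. Another gene on the same strand, inside the span of Nr4a1, reached 0.06 FPKM at most.

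Myc encodes a factor that pairs with MAX and drives growth and ribosome production. Myc (ENSMUSG00000022346, chromosome 15, 61857240 to 61862223) had 30.51, 34.18 and 97.6 FPKM in vehicle and 12.79, 23.01 and 21.79 FPKM with KIRA6. All 3 KIRA6 libraries were lower than all 3 vehicle libraries, but Vehicle replicate 3 was 3.02 times the mean of the other vehicle libraries. The means were 54.1 ± 37.7 and 19.2 ± 5.58 FPKM (SD, n = 3 each). With that spread the log2 fold change of −1.31 ± 0.47 (SE) was not called (limma adjusted p = 0.09095, 95% interval of −2.43 to −0.18). Without Vehicle replicate 3 and KIRA6 replicate 1 together the change was smaller, −0.52 ± 0.11, and was called (limma adjusted p = 0.005497). That fit called 6 members, and 20.1% of tested genes lower and 55.9% in either direction. Leaving out the libraries that deviated most narrows the spread by itself, so the calls of this fit are a description only.

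Among the IER proteins, IER2 is a short nuclear protein of single-exon origin, induced with FOS and JUN. Ier2 (ENSMUSG00000053560, chromosome 8, 85387960 to 85389483) had 29.66, 33.17 and 33.65 FPKM in vehicle and 9.53, 8.10 and 8.20 FPKM with KIRA6. The libraries within each group were close together and the groups far apart. Its log2 fold change of −1.84 ± 0.13 (SE, limma adjusted p = 0.0006687) was the 63rd lowest of 11778. Ier2 was called lower in all 18 alternative fits, with log2 fold changes from −2.06 to −1.79, and −1.88 without the 2 libraries that stood apart.

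IER3, also known as IEX-1, modulates ERK signalling and cell survival and is induced by NF-κB, p53 and ERK. Ier3 (ENSMUSG00000003541, chromosome 17, 36132576 to 36133815) was the most abundant member in vehicle, with 55.61, 63.56 and 63.04 FPKM, and had 31.68, 31.69 and 24.9 FPKM with KIRA6. The log2 fold change was −1.04 ± 0.15 (SE, limma adjusted p = 0.004633), and all 18 alternative fits called it, with −1.07 without the 2 libraries that stood apart. Relative to Ier2, Ier3 kept more of its vehicle level, with means of 60.7 and 29.4 FPKM against 32.2 and 8.61 FPKM. The difference between these changes was not tested.

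IER5 binds HSF1 and favours the expression of heat shock genes. Ier5 (ENSMUSG00000056708, chromosome 1, 154972107 to 154975382) had 7.34, 8.38 and 11.84 FPKM in vehicle and 6.15, 7.93 and 9.40 FPKM with KIRA6. The groups overlapped, and the log2 fold change was −0.21 ± 0.23 (SE, limma adjusted p = 0.5574). Its 95% interval ran from −0.76 to 0.34. The interval of Ier3 (−1.4 to −0.68) overlaps it, and that of Ier2 (−2.16 to −1.53) does not. The differences between these changes were not tested. The direction turned to 0.13 without Vehicle replicate 3 and KIRA6 replicate 1.

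Phlda1, or TDAG51, encodes a pleckstrin homology-like protein reported to restrain receptor tyrosine kinase signalling. Phlda1 (ENSMUSG00000020205, chromosome 10, 111342147 to 111344506) had 21.35, 20.62 and 34.7 FPKM in vehicle and 7.9, 12 and 12.86 FPKM with KIRA6. Again the groups were apart, with Vehicle replicate 3 highest and KIRA6 replicate 1 lowest. The log2 fold change was −1.18 ± 0.27 (SE, limma adjusted p = 0.02231), and −0.73 without those 2 libraries (adjusted p = 0.001152). The call ended without Vehicle replicate 2, KIRA6 replicate 2 or KIRA6 replicate 3, with limma adjusted p of 0.0501, 0.07068 and 0.05228.

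Csrnp1 encodes a cysteine- and serine-rich nuclear protein first described as induced by AXIN1. Csrnp1 (ENSMUSG00000032515, chromosome 9, 119800229 to 119813724) had 4.33, 5.93 and 8.66 FPKM in vehicle and 1.93, 3.32 and 2.44 FPKM with KIRA6. Its groups did not overlap, and the log2 fold change was −1.13 ± 0.28 (SE, limma adjusted p = 0.03014). Without Vehicle replicate 3 and KIRA6 replicate 1 the value was −0.73 (adjusted p = 0.01463). Leaving out Vehicle replicate 2 ended the call (limma adjusted p = 0.09225), as did leaving out any 1 of the 3 KIRA6 libraries (0.07351, 0.05889 and 0.09876) or using no filter (0.06041). The gene lies within the span of Cx3cr1 on the same strand, which reached 0.12 FPKM.

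**Figure D2:**
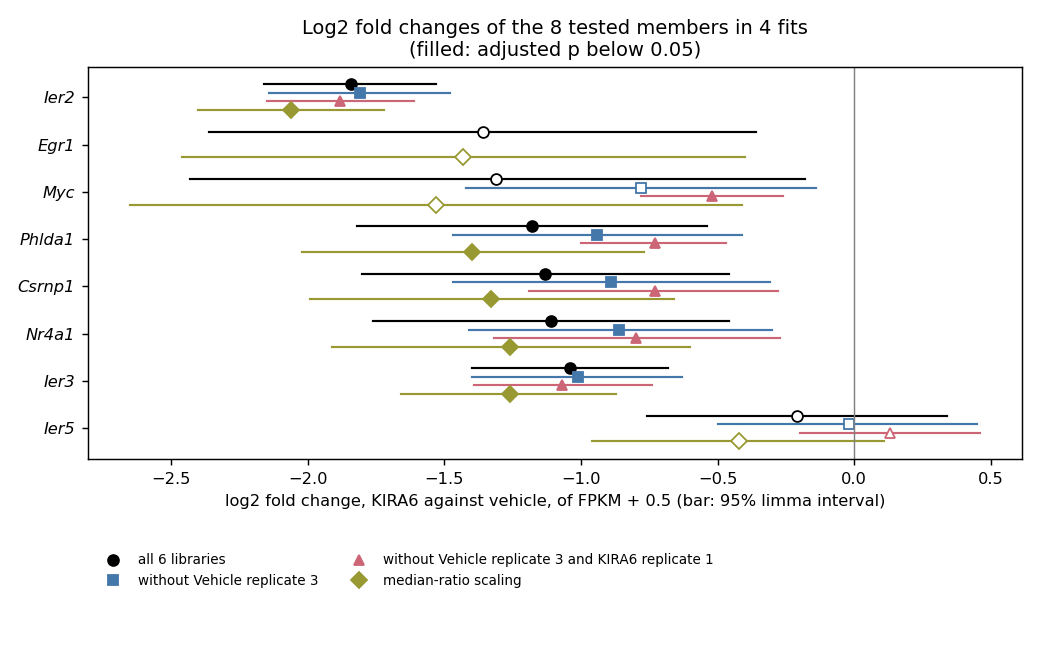
Log2 fold change (horizontal axis) of each of the 8 tested genes with its 95% limma interval in 4 fits; filled symbols passed an adjusted p of 0.05, and Egr1 has no value where it was under the filter. Ier2 and Ier3 barely move between the fits on deposited values, whereas Myc goes from −1.31 with all libraries to −0.52 without the 2 libraries that stood apart.

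In vehicle the order of mean levels was Ier3 (60.7 ± 4.45 FPKM), Myc (54.1 ± 37.7), Ier2 (32.2 ± 2.18), Phlda1 (25.6 ± 7.93), Ier5 (9.19 ± 2.36), Csrnp1 (6.31 ± 2.19), Nr4a1 (1.77 ± 0.776), Egr1 (1.06 ± 1.04), Egr3 (0.203 ± 0.146) and Egr2 (0.0633 ± 0.0513; SD, n = 3 each). Neighbours in this order lay within an SD of each other or near it, except at the steps from Phlda1 to Ier5 and from Csrnp1 to Nr4a1. With KIRA6 the order was Ier3 (29.4 ± 3.92 FPKM), Myc (19.2 ± 5.58), Phlda1 (10.9 ± 2.65), Ier2 (8.61 ± 0.798), Ier5 (7.83 ± 1.63), Csrnp1 (2.56 ± 0.703) and Nr4a1 (0.520 ± 0.173), followed by the EGR genes with means below 0.1 FPKM. In this group Phlda1, Ier2 and Ier5 lay within an SD of their neighbour, and the other steps down to Nr4a1 were wider. Ier2 thus went from well above Ier5 in every vehicle library to values that overlap those of Ier5 with KIRA6.

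The members differed in how they varied between libraries of the same group. Vehicle replicate 3 was above the mean of the other vehicle libraries for all 8 tested members, and for 5283 of all 11778 tested genes. Egr1 passed the filter only with that library included, so its being above was fixed by the filter. Of the untested members Egr3 was above (ratio of FPKM of 3.08) and Egr2 below (0.714). The ratio of FPKM was 4.91 for Egr1, 3.02 for Myc, 1.95 for Nr4a1, 1.69 for Csrnp1, 1.65 for Phlda1 and 1.51 for Ier5, but 1.07 for Ier2 and 1.06 for Ier3. On the scale of log2(FPKM + 0.5), 3.88% of all tested genes deviated upwards at least as far in that library as Egr1, and 3.57% as far as Myc. In KIRA6 replicate 1 the same comparison gave low ratios for Myc (0.571), Phlda1 (0.636), Csrnp1 (0.670), Ier5 (0.710) and Nr4a1 (0.761), while Ier2 (1.17) and Ier3 (1.12) were above 1, as was Egr1 (2.5, on 5 estimated fragments). Across all tested genes the deviations of these 2 libraries went in opposite directions (r = −0.841 over 11778 genes, which share the libraries and are not replicates), and Ier2 and Ier3 lay near the middle of that axis. What these libraries differed in was not tested.

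**Figure D3:**
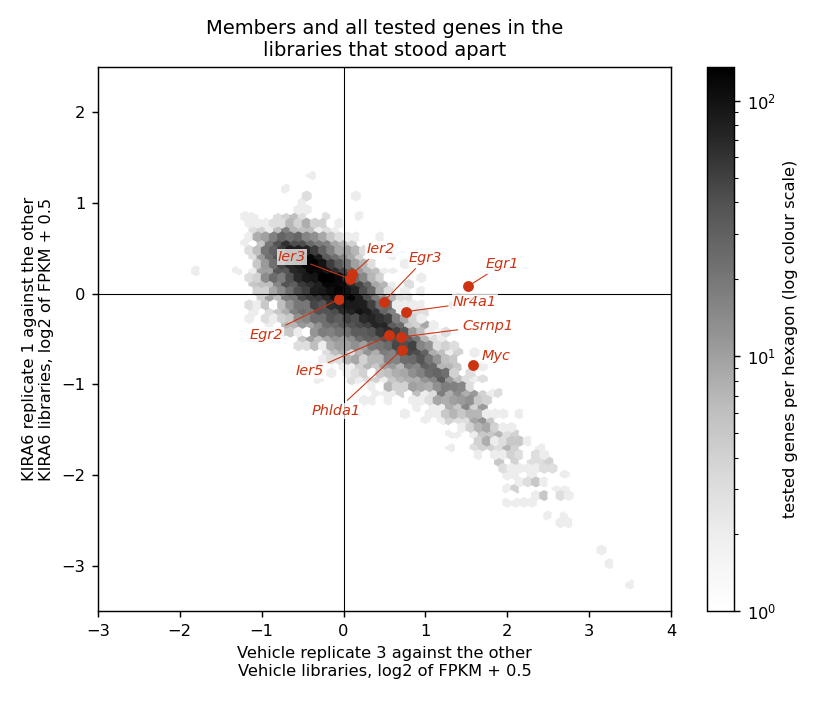
Deviation of Vehicle replicate 3 (horizontal axis) and KIRA6 replicate 1 (vertical axis) from the mean of the other libraries of their group, as log2 of the ratio of FPKM + 0.5, with tested genes as grey hexagons and the 10 members in red (Egr2 and Egr3 were not tested). Myc (1.58 and −0.79), Phlda1 (0.71 and −0.62) and Csrnp1 (0.70 and −0.48) lie towards the high vehicle and low KIRA6 corner, and Ier2 (0.10 and 0.21) and Ier3 (0.08 and 0.16) near the centre.

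The genes themselves are compact. Ier2 and Ier5 have no intron in the deposited annotation, their span being equal to their exonic length of 1524 and 3276 bases, which holds for 11.6% of tested genes. Spans of the other members ran from 1240 bases (Ier3) to 20527 bases (Nr4a1), and 9 of the 10 spanned 13496 bases or less, as did 39.6% of tested genes, whose median span was 19534 bases. Of the single-exon pair Ier2 was called and Ier5 was not.

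Counts for the gene lists below are read beside the 15.6% of all tested genes that rose and the 7.98% that fell. Leaving out Vehicle replicate 3 and KIRA6 replicate 1, the outlying libraries, made those shares 35.7% and 20.1%, against which the list counts from that fit are read.

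Of 6 family relatives tested, 1 rose and 1 fell (16.7% each), 2 rose without KIRA6 replicate 1, and 3 rose and 1 fell without both libraries that stood apart. Phlda2, an imprinted growth regulator in placenta, fell from 33.17, 32.87 and 24.39 FPKM in vehicle to 7.48, 5.58 and 4.76 FPKM, and its log2 fold change was −2.26 ± 0.21 (SE, limma adjusted p = 0.001225). Phlda3, a p53 target that restrains AKT, was at 16.3 ± 1.32 and 16.2 ± 0.680 FPKM (SD, n = 3; limma adjusted p = 0.984). Mycl rose from 0.827 ± 0.0737 to 2.44 ± 0.221 FPKM (limma adjusted p = 0.002863), while Mycn was at 0.03 FPKM or less in every library. Nr4a2 had 0.42, 0.15 and 0.32 FPKM in vehicle and 0.58, 0.89 and 1.29 FPKM with KIRA6, higher in all 3 but just past the threshold (limma adjusted p = 0.05029), and it passed the filter only through its KIRA6 values. Ier5l and Csrnp2 were not called (limma adjusted p = 0.3082 and 0.5737), Nr4a3 was at 0.02 FPKM or less, and Egr4 and Csrnp3 are listed at 0.

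Other immediate-early genes went both ways. Of 38 listed genes 34 were tested, 15 fell and 9 rose, where 7.98% and 15.6% of all tested genes did so, and the list median was −0.19. With both outlying libraries left out 15 fell and 13 rose. Among those that fell, the ERK phosphatase gene Dusp6 went from 42.8 ± 2.94 to 1.30 ± 0.0709 FPKM, the EGF receptor ligand gene Hbegf from 31.9 ± 3.66 to 4.18 ± 0.438 FPKM, and Errfi1, whose product MIG6 inhibits EGF receptors, from 53.6 ± 1.64 to 16.3 ± 1.58 FPKM (SD, n = 3; limma adjusted p = 6.679e-05, 0.0004254 and 0.0007236). The circadian repressor Nfil3 rose from 10.8 ± 0.236 to 29.5 ± 2.2 FPKM, the stress gene Gadd45b from 22.4 ± 6.19 to 105.0 ± 21.5 FPKM and Rgs2, which dampens Gq signalling, from 0.797 ± 0.351 to 4.10 ± 0.74 FPKM (limma adjusted p = 0.001052, 0.002309 and 0.003197). The 5 members that fell had log2 fold changes smaller in size than that of Dusp6 (−4.59), the lowest of all tested genes.

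Of the 17 tested genes for SRF, ternary complex factors, CREB factors and the ERK, RSK and MSK kinases above them, 3 rose (17.6%, near the 15.6% of all tested genes) and 0 fell. Leaving out both outlying libraries gave 7 higher and 1 lower. Mapk3, which encodes ERK1, rose from 38.1 ± 2.67 to 87.7 ± 7.52 FPKM (SD, n = 3; limma adjusted p = 0.002023). Rps6ka3 and Rps6ka5, for RSK2 and MSK1, had limma adjusted p of 0.04012 and 0.04058, and only 1 gene of the list rose when any library but KIRA6 replicate 1 was left out, or under median-ratio scaling, which also gave 1 lower gene. RNA levels say nothing of the phosphorylation of these proteins.

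NAB corepressors, which are induced by EGR factors and bind them, were not called. Nab1 and Nab2 had log2 fold changes of 0.04 and 0.43 (limma adjusted p = 0.8809 and 0.06877). Of 10 tested genes of this list of corepressors and reported EGR targets, 0 rose and 1 fell (10%, near the 7.98% of all tested genes), the hyaluronan receptor gene Cd44, from 46.35, 45.42 and 92.52 FPKM in vehicle to 8.55, 11.45 and 15.99 FPKM (limma adjusted p = 0.005347). Like Egr1 and Myc, Cd44 was highest in Vehicle replicate 3. Without Vehicle replicate 3 the list had 2 genes higher and 2 lower, without Vehicle replicate 1 it had 1 higher, and with median-ratio scaling 3 were lower. With both outlying libraries left out 6 were higher and 3 lower.

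Reported MYC targets were mostly lower, although Myc itself was not called. Of 25 tested, 18 fell and 0 rose, where 7.98% of all tested genes fell, with a list median of −0.93 beside 0.16 for all genes. Polr1b, a subunit of RNA polymerase I, fell from 16.6 ± 1.11 to 4.54 ± 0.265 FPKM, the ribosome assembly gene Ppan from 31.2 ± 3.31 to 9.79 ± 0.827 FPKM and Rrs1, of the same pathway, from 115.0 ± 18.7 to 28.2 ± 4.34 FPKM (SD, n = 3; limma adjusted p = 0.0006763, 0.001032 and 0.001216). In Vehicle replicate 3, where Myc was 3.02 times the other vehicle libraries, 9 of the 25 targets were above and 16 below them, with a median deviation of −0.28 (log2). Over all tested genes 5283 of 11778 were above, with a median of −0.07. These values come from 1 library, and a link between Myc and these genes was not tested. The count that fell was 11 when KIRA6 replicate 2 was left out, and 20 under median-ratio scaling. Leaving out both outlying libraries gave 21 lower and 1 higher.

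Partners and antagonists of MYC went both ways, with 4 of 14 tested genes higher (28.6%, beside 15.6% of all) and 3 lower (21.4%, beside 7.98%). Without both outlying libraries 8 were higher and 3 lower. The MAX dimerization repressors Mxd4, Mxd1 and Mxd3 rose from 0.673 ± 0.15 to 8.27 ± 0.984 FPKM, from 0.187 ± 0.0493 to 1.5 ± 0.127 FPKM and from 2.21 ± 0.352 to 7.72 ± 1.03 FPKM (SD, n = 3; limma adjusted p = 0.0004325, 0.001368 and 0.001842). Mxi1, of the same family, was the other gene that rose, by a log2 fold change of 0.80. Mxd1 passed the filter only through its KIRA6 values, and with the filter at a mean of 1 FPKM 3 genes of the list were higher. Max fell from 32.7 ± 0.835 to 20.7 ± 1.45 FPKM and Mlx from 25.4 ± 2.21 to 12.7 ± 2.09 FPKM (limma adjusted p = 0.01123 and 0.007076). Lower genes numbered 1 without Vehicle replicate 2 or KIRA6 replicate 2. The ligase gene Fbxw7, whose product marks MYC for degradation, was not called (log2 fold change of 0.08).

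Of 10 tested genes for HSF1 and its targets, which IER5 is known to favour, 1 rose (10%, beside 15.6% of all) and 3 fell (30.0%, beside 7.98%). Leaving out both outlying libraries gave 2 higher and 5 lower. Hspa1b, uncertain because it has a near-identical copy, rose from 6.21 ± 1.42 to 17.8 ± 3.49 FPKM (SD, n = 3; limma adjusted p = 0.005444). The co-chaperone gene Hsph1 went down from 32.9 ± 3.84 to 15.7 ± 1.9 FPKM (adjusted p = 0.005289). Hspa4 and Hspa8 were the others that fell, and a single gene, 1 of the 10, fell when either of vehicle replicates 1 and 2, or KIRA6 replicate 2, was left out. Of 11 tested NF-κB subunit and feedback genes, listed because NF-κB induces Ier3, 1 rose (Tnip1, limma adjusted p = 0.04309). Tnfaip3 was the 1 that fell, from 15.9 ± 1.52 to 6.4 ± 0.646 FPKM (limma adjusted p = 0.002231). No gene of this list rose under median-ratio scaling (2 fell), nor when replicate 1 or 2 of either group was left out. In contrast, 7 rose and 2 fell without both outlying libraries, and 3 rose with the replicate block. The share of 9.09% in each direction lay below the 15.6% of all tested genes that rose and near the 7.98% that fell.

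AU-rich elements shorten the life of many immediate-early transcripts. Of 13 tested factors of decay or stabilization 1 rose, the exonuclease gene Xrn1, from 1.84 ± 0.247 to 3.35 ± 0.781 FPKM (SD, n = 3, limma adjusted p = 0.04109). Elavl1, for a stabilizing factor, was the 1 that fell, from 19.3 ± 2.45 to 12.3 ± 1.23 FPKM (limma adjusted p = 0.02488). In this list 0 genes rose under median-ratio scaling and when vehicle replicates 1 or 2, or KIRA6 replicates 2 or 3, were left out, and 2 rose without Vehicle replicate 3. Without both outlying libraries 6 rose and 1 fell. The share of 7.69% in each direction lay below the 15.6% of all tested genes that rose and near the 7.98% that fell. None fell when replicate 1 or 2 of either group was left out.

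**Figure D4:**
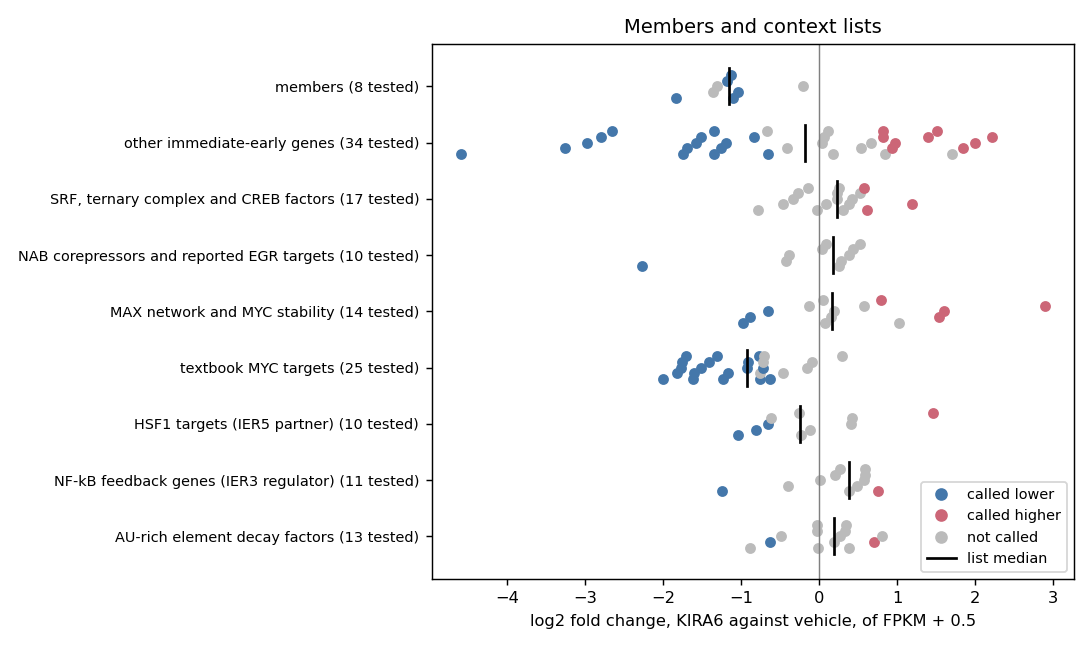
Log2 fold change of FPKM + 0.5 (horizontal axis) for each tested gene of the members and of 8 gene lists, family relatives not included (rows, vertical scatter only for legibility), coloured by the limma call, with the list median as a black bar. The members (median −1.15) and the reported MYC targets (median −0.93) lie mostly below 0, while the other immediate-early genes spread to both sides (median −0.19).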

How the data were processed

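Polyadenylated RNA of 3 vehicle and 3 KIRA6 libraries was sequenced with strand information, per the labels' protocols. The authors deposited FPKM per gene and library, with 2 decimals, exonic lengths and GRCm39 positions. Tools listed without settings in the submitters' processing notes are HISAT2 2.2.1, HTSeq 0.6.1, cutadapt 1.9.1 and DESeq2 1.34.0, and whether counting used strand is not given.

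Depth was recovered from whole-fragment steps of short genes: 100% of 452 to 577 values per library came within 0.1 of a whole number. A count of 3 fragments was taken as the floor, and intervals and floors cover counting error only. Log2(FPKM + 0.5), which understates the change of low genes, was modelled in R 4.3.3 by limma 3.58.1 (trend, robust, two-sided). Benjamini-Hochberg was applied over the 11778 genes whose mean FPKM reached 0.5. A check on simulated data drew noise separately for each gene, so it does not cover deviations that many genes share in a library. Whether the libraries are separate cultures is not labelled, and the p-values then cover the spread among these 6 samples alone, possibly technical. With 3 against 3 libraries no permutation p can fall below 0.1. SD is over 3 libraries, SE is limma's.

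The members and lists were chosen with earlier results of these data known. All members and family relatives are named, and up to 3 called genes per direction of each other list, by smallest p; Nab1, Nab2, Mxi1 and Fbxw7 were added after their values were seen. The values of 1 gene of these lists are not reported here. Alternatives changed the pseudocount, filter, scaling, empirical Bayes settings and library weights, added a replicate block, used limma-voom on estimated fragments, and left out libraries. The voom fit with no filter was added after seeing the data. Promoter letters came from RefSeq (GRCm38.p6), whose coordinates were not joined to GRCm39.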

Additional observations from a re-analysis of the deposited data

How the results depend on the processing

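Ier2 and Ier3 were called lower in all 18 alternatives and Ier5 in 0, its log2 fold change running from −0.42 to 0.13, the latter without Vehicle replicate 3 and KIRA6 replicate 1, and from −0.35 to −0.02 with each library left out in turn. Phlda1 was called in 15, Nr4a1 and Csrnp1 in 13, Myc in 3 of 18, and Egr1 in 7 of the 15 that tested it. In place of 5 members called, 3 were called with no filter on low values, and 2 to 6 with each library left out in turn. In place of 2783 genes called, those fits gave 1174 to 3423, and in place of 63 context genes 41 to 66. Without Vehicle replicate 3 and KIRA6 replicate 1 together 6592 genes and 105 context genes were called. Library weights, whose estimation did not fully converge, called 10003 genes and 125 context genes, 7 members among them. The replicate block called 4423 genes and 7 members, adding Myc (adjusted p = 0.02968) and Egr1 (0.02227). Whether the replicate numbers pair the libraries is not known. Same-numbered deviations correlated at 0.762, −0.469 and 0.738 for replicates 1, 2 and 3, and KIRA6 replicate 2 correlated best with Vehicle replicate 3 (0.524). The cause of these shifts was not tested. With median-ratio scaling the median over all genes was −0.04 in place of 0.16, and 5 members were called, with 8 in place of 7 not overlapping. Depth limits Egr2 and Egr3, which had 0 to 30 estimated fragments per library.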
